A study of Mus musculus with 4 samples.

Results

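The cells described here were selected as immature loop of Henle cells from single-cell RNA profiles of the developing mouse kidney. A cell was taken when it had at least 500 genes, at most 20% of UMIs (unique molecules counted) from mitochondrial genes, and at least 1 UMI of 2 or more of the 4 transcription factor genes Irx1, Irx2, Sim2 and Pou3f3. It also had to hold at most 1 UMI of Umod, at most 1 UMI of Wnt4 and no UMI of Slc12a3 or Ret. The rule was met by 1149 of the 22838 cells kept. Their contents went against the label: in every library the selected cells held a group with Slc12a1, a group with the proximal tubule genes Lrp2 and Hnf4a, and a group with neither. They are therefore called the selected cells.

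Whole kidneys were profiled at embryonic day 15.5 (E15.5) and at birth (P0) in strain ICR and at E17.5 in strain C57BL/6. The transplant library came from C57BL/6N kidneys of E12.5 embryos that spent 12 days in the epididymal fat of a host mouse. Its host strain is given as C57BL/6N in one place and as an immunodeficient NOD mouse in another. All 4 groups carry the genotype label Wild type, and each is 1 library with no replicate check and no stated number of animals. Age and strain cannot be told apart between the ICR and the C57BL/6 libraries, so P0 was compared with E15.5 and the transplant with E17.5. Where 4 values follow each other, the first is of E15.5, the next ones are of E17.5 and P0, and the last is of the transplant.

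The loop of Henle is the hairpin segment of the nephron that lies between the proximal and the distal tubule. It grows out of the S-shaped body, where Irx1, Irx2, Sim2 and Pou3f3 are active in the segment that will form the loop. The mature thick ascending limb takes up salt through the cotransporter encoded by Slc12a1, returns potassium through Kcnj1, passes chloride on through channels with the subunit encoded by Bsnd, and secretes uromodulin, the product of Umod. A small plaque of cells at its end, the macula densa, has Slc12a1 but lacks uromodulin, and carries Nos1, Ptgs2 and Pappa2.

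The libraries held 4158, 5551, 10810 and 7670 barcodes with 92387054, 42430540, 99068204 and 57855356 UMIs, and 3565, 4563, 8092 and 6618 cells were kept. The selected cells had median UMI counts of 27143, 8531, 11693 and 12304.5, so the E15.5 library was the deepest. A total of 362 barcodes occurred in more than 1 library, 1 of them among the selected cells. Doublets were not removed, and 3, 8, 24 and 10 selected cells had doublet scores among the highest of their library. Summed over the 18 genes of the dissociation stress list, the level in the selected cells was 1947, 6720, 11023 and 8925 CPM (counts scaled to 1e+06 UMIs), with no gene of the list at 0. Over the 6 erythroid genes it was 1637, 7.09, 12.3 and 172 CPM, beside 14035, 53.5, 14.6 and 1855 CPM in the other cells. The P0 library, labelled Wild type, held UMIs of the reporter tdTomato in 40.7% of the selected cells, and the other libraries held none.

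The rule was met by 209, 291, 435 and 214 cells, which is 5.86%, 6.38%, 5.38% and 3.23% of the cells kept. Exact binomial 95% intervals were 5.11 to 6.68%, 5.69 to 7.13%, 4.89 to 5.89% and 2.82 to 3.69%. These and all later intervals cover counting error only. The transplant share lay below the other intervals, but the order changed at equal depth. With each cell thinned to 3000 UMIs before the rule was applied, which left out 150, 390, 741 and 1864 shallower cells, the shares were 2.28%, 4.41%, 3.26% and 3.39%. E15.5 then had the lowest share and E17.5 the highest.

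**Figure D1:**
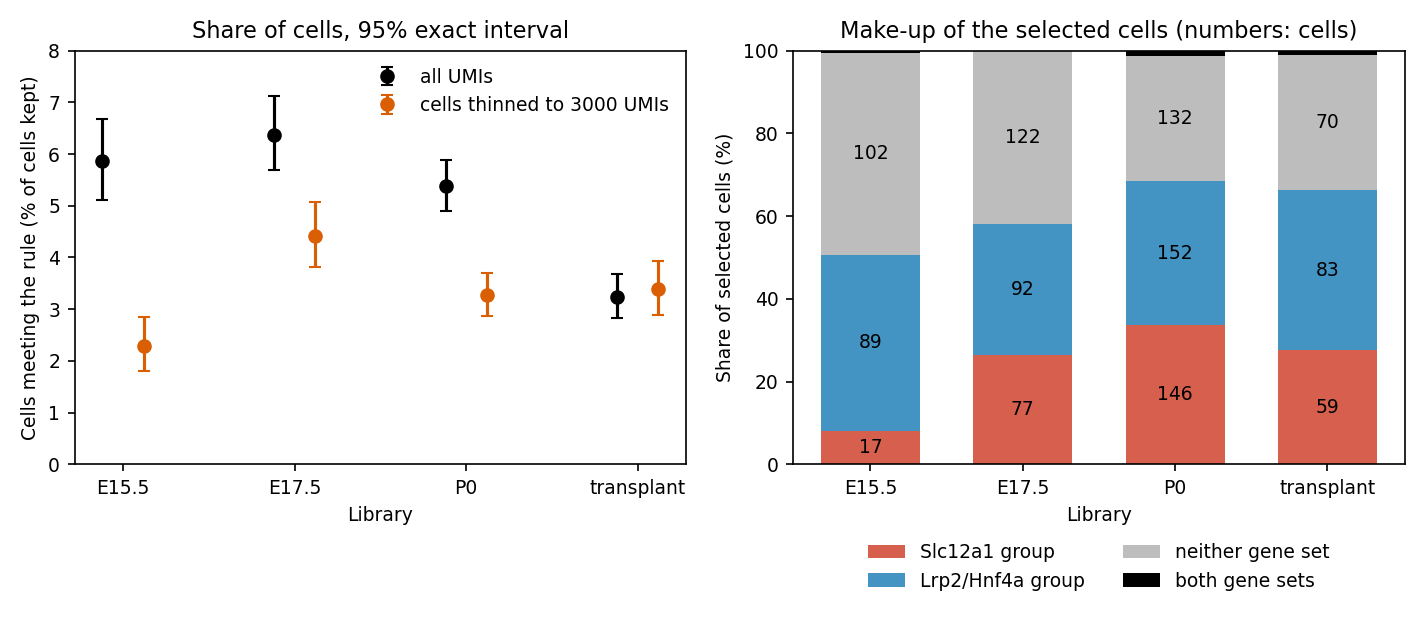
Left, the share of cells kept that met the rule in each library, with all UMIs (black) and with cells thinned to 3000 UMIs (orange), bars being 95% exact intervals. Right, the make-up of the selected cells by the groups defined below, in percent, with cell numbers printed; the Slc12a1 group held 17 cells at E15.5 and 146 at P0.

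The genes of the rule chose the cells, so their values describe the choice. Irx1 (GRCm38 chr13:71957921-71963723, minus strand) was at 185, 383, 288 and 282 CPM in the selected cells and at 9.54, 14.6, 20.5 and 66.5 CPM in the other cells kept. Irx1 was detected in 87.1%, 92.8%, 91.5% and 87.4% of the selected cells. Its neighbour Irx2 (chr13:72628820-72634198) was detected in 67.5%, 69.4%, 75.2% and 59.8%. Pou3f3 (chr1:42695768-42703176), a POU-domain factor, was detected in 93.8%, 81.1%, 77.0% and 85.5%. Sim2 (chr16:94084931-94127032), a basic helix-loop-helix factor, was the rarest of the 4, in 35.4%, 32.3%, 26.4% and 17.3% of the cells, and its level was lowest in the transplant (52.4, 71.5, 45.4 and 19.8 CPM).

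Few endothelial cells met the rule, most often at E15.5. Endothelial cells were taken by several genes of the endothelium list and by having no Epcam UMI. The Epcam condition can leave out cells with free epithelial RNA, so the values may understate the level that free RNA could reach. Of the endothelial cells, which should lack the markers, 6 of 233, 0 of 471, 2 of 889 and 2 of 678 held 2 or more of the 4 markers. The same numbers met the whole rule. These shares were 2.58% (0.951 to 5.52%), 0%, 0.225% and 0.295%, beside 5.86%, 6.38%, 5.38% and 3.23% of all cells kept. The endothelial cells had median UMI counts of 25583, 9455, 8435 and 6530.5. At least 1 Irx1 UMI was seen in 6.44% of endothelial cells at E15.5 and in 1.27%, 1.46% and 2.06% in the other libraries. Epcam, an adhesion molecule of epithelial cells, was detected in 83.7%, 95.9%, 93.3% and 94.9% of the selected cells. The summed stroma list (12 genes) was at 236, 58.3, 49.2 and 114 CPM in the selected cells beside 1644, 942, 676 and 1688 CPM in the other cells, with no list gene at 0, so it was highest at E15.5.

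At the edge of the rule, cells with exactly 2 of the 4 markers (89, 123, 197 and 125 cells) had Irx1 at 50.3, 274, 182 and 144 CPM, and cells with exactly 1 marker had 8.54, 32.1, 19 and 22.5 CPM. Cells of the marker rule with 2 or 3 Umod UMIs, just outside, numbered 8, 33, 72 and 77 and had Slc12a1 at 3.94, 698, 599 and 1706 CPM. The selected cells with 1 Umod UMI had 310, 763, 453 and 1066 CPM. From E17.5 on, the Slc12a1 levels on either side of the Umod limit were within 2-fold of each other. Of the cells with 2 or more markers, 21, 68, 281 and 430 were left out by Umod, which in the transplant was more than the number selected.

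The selected cells were split by UMIs of Slc12a1 and of Lrp2 and Hnf4a, a choice made after these values had been seen. Slc12a1 (chr2:125152505-125230002) encodes the loop's sodium-potassium-chloride cotransporter. Lrp2 encodes megalin, the endocytic receptor of the proximal tubule, and Hnf4a the transcription factor that drives proximal tubule maturation. The Slc12a1 group (at least 2 Slc12a1 UMIs and fewer than 2 of the pair) held 17, 77, 146 and 59 cells. The Lrp2 Hnf4a group (at least 2 UMIs of the pair summed and fewer than 2 of Slc12a1) held 89, 92, 152 and 83 cells. The remaining cells numbered 102, 122, 132 and 70. Only 1, 0, 5 and 2 cells passed both limits, so the split followed a division already present in the counts.

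**Figure D2:**
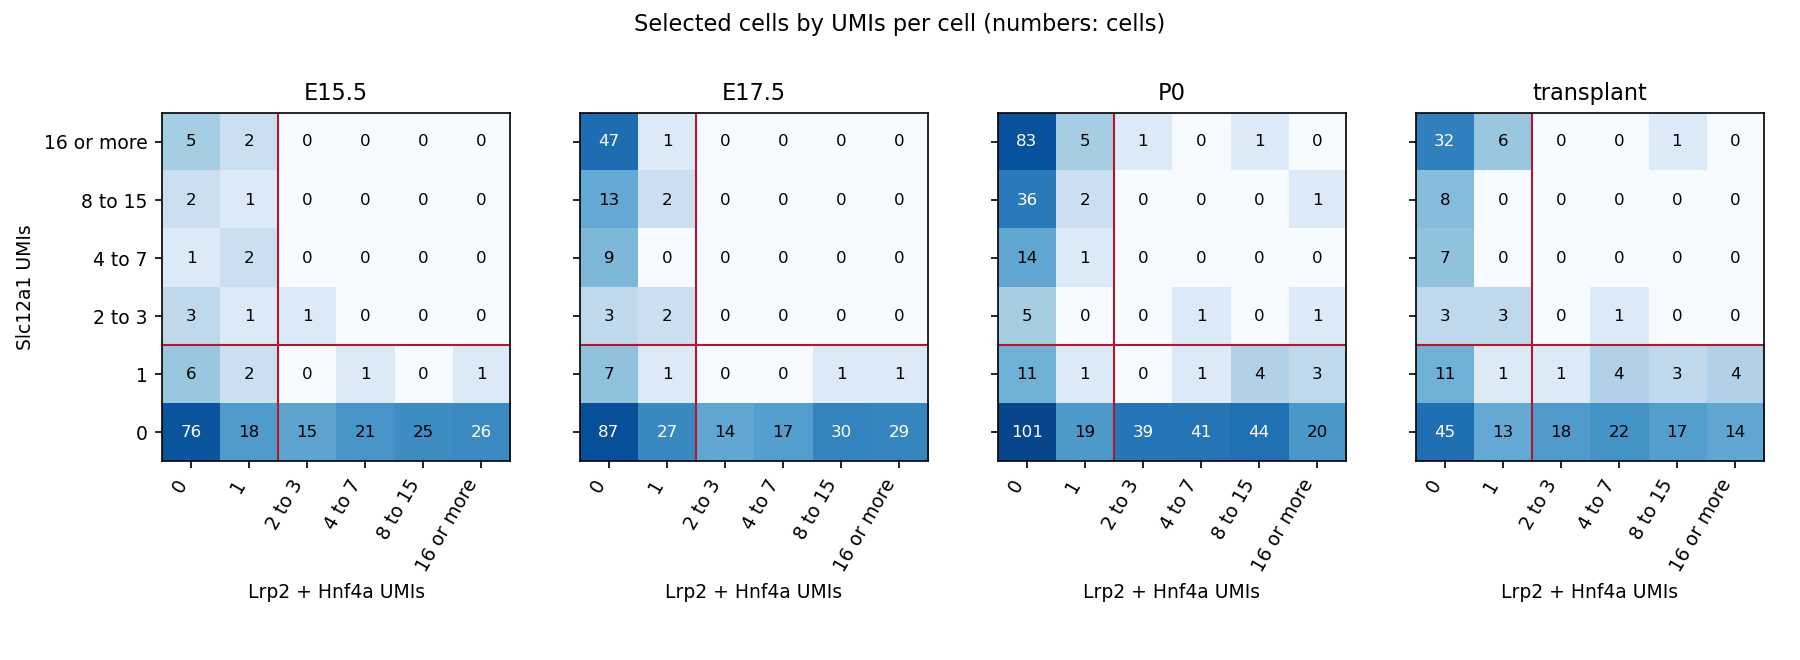
Number of selected cells by Slc12a1 UMIs (rows) and by Lrp2 and Hnf4a UMIs summed (columns) in each library, with red lines at 2 UMIs. The cells lie along the left and the lower edges, and 1, 0, 5 and 2 cells lie above both lines.

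The Slc12a1 group made up 8.13%, 26.5%, 33.6% and 27.6% of the selected cells, and the Lrp2 Hnf4a group 42.6%, 31.6%, 34.9% and 38.8%. Limits in absolute UMIs are easier to pass in deep cells, and the E15.5 and Lrp2 Hnf4a cells were deep. Median UMI counts were 30364, 7766, 8263 and 7663 in the Slc12a1 group, 30128, 11718, 18273.5 and 18022 in the Lrp2 Hnf4a group, and 25095, 7854, 11666.5 and 9427.5 in the remaining cells. After the selected cells were thinned to 3000 UMIs, the Slc12a1 group made up 3.35%, 22.8%, 31.3% and 25.4% and the Lrp2 Hnf4a group 16.3%, 23.5%, 14.6% and 14.9%. With thinning for the rule only, and the group limits on all UMIs, the Slc12a1 group made up 14.1%, 33.2%, 40.8% and 56.5% of the cells then selected. The Lrp2 Hnf4a group made up 23.1%, 14.7%, 10.8% and 11.8%. Those shares are not at equal depth, since the Slc12a1 group then had median UMI counts of 40033, 8061, 7826 and 14448. E15.5 had the lowest share of the Slc12a1 group in all of these, while the order of the Lrp2 Hnf4a shares changed with depth. Among endothelial cells, 0%, 0%, 0.225% and 0.590% held 2 or more Slc12a1 UMIs, and 2.15%, 1.06%, 0.337% and 0.442% held 2 or more of Lrp2 and Hnf4a.

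Clustering of the selected cells without the 8 genes of the rule gave 14 clusters. Those with thick ascending limb markers (Slc12a1, Kcnj1, Cldn10, Cldn19), called loop of Henle-like, held 16, 80, 142 and 5 cells. In the transplant 56 cells, none from another library, formed a cluster led by Klk1, S100g, Kng2 and Slc12a1 that was left unnamed. Early nephron-like clusters held 68, 79, 97 and 9 cells, proximal tubule-like ones 81, 54, 76 and 87, and a thin limb-like one, led by Cryab, Bst1, Cldn4 and Corin, 0, 21, 33 and 31. The transplant cells of a class therefore often lay in clusters of their own, and the groups cut by UMIs are used below in their place.

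The Slc12a1 group carried the transport genes of the thick ascending limb in every library. Compared with the Lrp2 Hnf4a group of the same library, 227 of 7713 genes (2.94%) were at least 2-fold higher in all 4 libraries and 431 (5.59%) at least 2-fold lower. Of the 25 genes of the thick ascending limb transport list, 16 were measured and 11 were in the higher set, one of them the gene that defined the group. The potassium channel gene Kcnj1 was at 46.0, 210, 140 and 203 CPM in the Slc12a1 group and at 2.35 CPM or less in the Lrp2 Hnf4a group. The chloride channel subunit gene Bsnd was at 31.7, 48.9, 39.3 and 66.7 CPM. Slc12a1 itself was at 875, 2985, 2469 and 2874 CPM, so the E15.5 cells of the group were the lowest for the cotransporter, Kcnj1 and Bsnd.

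Claudins set which ions pass between the cells of a tubule. Cldn16, which with Cldn19 forms the calcium and magnesium pore of the thick ascending limb, was at 38.1, 84.8, 111 and 179 CPM in the Slc12a1 group. In the Lrp2 Hnf4a group Cldn16 did not exceed 1.76 CPM. Cldn19 was at 133, 200, 153 and 188 CPM. Cldn10, a sodium-selective claudin, was at 249, 1150, 998 and 436 CPM, and it was also present in the Lrp2 Hnf4a group at 51.8, 69.4, 88.4 and 263 CPM. Cldn2, the claudin of the proximal tubule, showed the opposite pattern, with 92.6, 240, 119 and 227 CPM in the Lrp2 Hnf4a group.

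Among the transcription factors of the loop and distal nephron, Tfap2b, Tfcp2l1, Mecom and Pax2 were at least 2-fold higher in the Slc12a1 group than in the Lrp2 Hnf4a group in all 4 libraries. Tfap2b, an AP-2 factor of the distal nephron, differed by 48.8-fold at E15.5 (35.5 to 68.7) and by 578-fold at P0 (159 to 4782, on 2 UMIs in the Lrp2 Hnf4a group), with 648, 604, 374 and 608 CPM in the Slc12a1 group. Mecom, a zinc-finger factor, was at 554, 387, 265 and 305 CPM there and at 32.6, 5.72, 9.71 and 3.53 CPM in the Lrp2 Hnf4a group. Irx3, which the rule did not use, was lower in the Slc12a1 group (3.17, 5.75, 8.31 and 43.0 CPM) than in the Lrp2 Hnf4a group (58.2, 100, 79.3 and 47.0 CPM), least so in the transplant. Irx1 was highest in the Slc12a1 group at E15.5, at E17.5 and in the transplant (389, 508, 385 and 719 CPM), and level with the remaining cells at P0 (386 CPM). Sim2 was highest in the remaining cells (99.6, 149, 119 and 57.4 CPM).

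**Figure D3:**
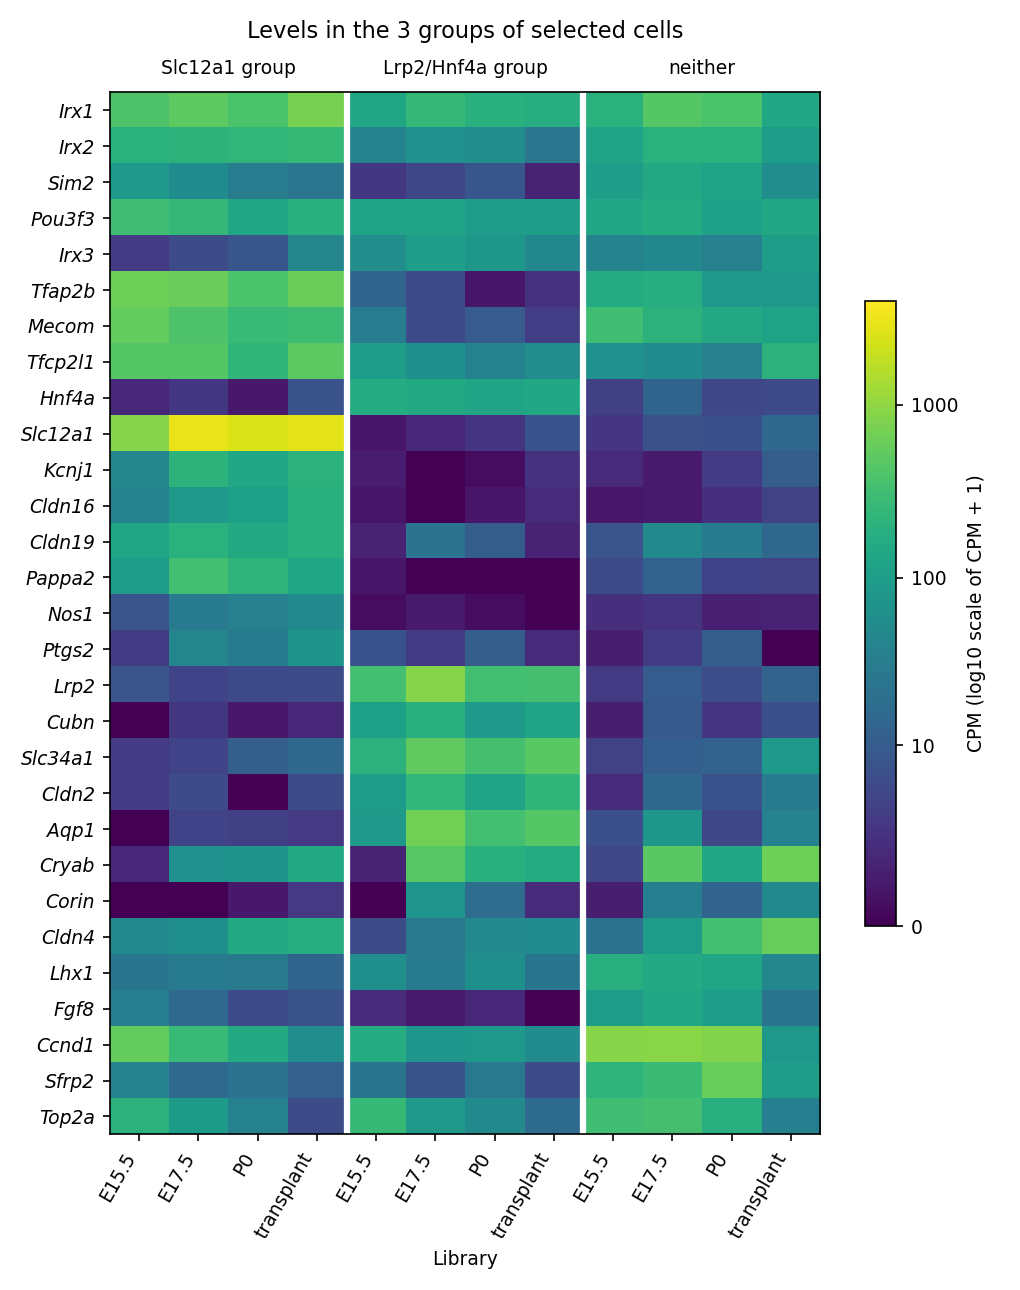
Levels of genes of the loop, proximal tubule and early nephron in the Slc12a1 group, the Lrp2 Hnf4a group and the remaining cells (headed neither), by library, as CPM on a log10 scale of CPM + 1. Slc12a1, Kcnj1, Cldn16 and Pappa2 are bright only under the Slc12a1 group, Lrp2, Cubn and Slc34a1 under the Lrp2 Hnf4a group, and Lhx1, Fgf8 and Sfrp2 under the remaining cells.

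Summed over its cells, the Lrp2 Hnf4a group had a broad proximal tubule profile, and Irx1, Irx2 and Pou3f3 were detected in it. At E15.5 it also held most measured collecting duct, distal tubule and stroma genes at higher levels than at P0, as given below. Of the 16 genes of the proximal tubule list, 14 were measured against the Slc12a1 group and 13 were at least 2-fold lower there in all 4 libraries, Lrp2 and Hnf4a included by construction. The list's median log2 ratio of the Slc12a1 group over the Lrp2 Hnf4a group was -5.33, -6.30, -6.00 and -4.34. Cubn, the co-receptor of megalin, was at 109, 183, 86.1 and 126 CPM in the Lrp2 Hnf4a group. The phosphate transporter gene Slc34a1 was at 205, 519, 345 and 472 CPM, and the organic anion transporter gene Slc22a6 at 41.4, 162, 52.4 and 53.5 CPM. All 3 were highest at E17.5, and Slc34a1 and Slc22a6 were lowest at E15.5. The glucose transporter gene Slc5a2, of the first proximal segment, did not exceed 0.948 CPM.

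Several genes with leading ratios were high in this group. Slc7a13, the cystine and aspartate transporter gene of the last proximal segment, was at 35.1, 222, 72.8 and 140 CPM in the Lrp2 Hnf4a group and had no UMI in the Slc12a1 group of any library. The related transporter gene Slc7a12 was at 36.3, 395, 119 and 169 CPM, and Aadat, an enzyme of lysine and kynurenine breakdown, at 257, 2392, 1213 and 1684 CPM. These genes also led the comparison of all selected cells with the other cells of their library, in which 142 of 8850 genes (1.60%) were at least 2-fold higher and 109 (1.23%) at least 2-fold lower in all 4 libraries. Aadat was 9.85-fold to 17.9-fold higher and Chil4 12.6-fold to 25.8-fold higher, and Slc7a12, Slc7a13, Slc22a13, Serpina10, Prlr, Dcst1 and Ttr were also among the 10 with the highest smallest ratio. Those with the lowest values included the stromal and smooth muscle genes Col1a2, Acta2, Meis2, Myl9 and Tagln and the podocyte and progenitor factor Wt1. Sim2 was nearly absent from the Lrp2 Hnf4a group, at 2.84, 4.90, 8.09 and 1.18 CPM, while Irx1 was at 130, 251, 190 and 176 CPM.

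The remaining cells carried genes of the early nephron. Lhx1, a LIM factor needed to form the renal vesicle, was at 178, 159, 135 and 45.7 CPM, and Fgf8, a growth factor of the forming nephron, at 96.9, 141, 98.9 and 23.5 CPM. The cell cycle gene Ccnd1 was at 883, 902, 829 and 82.2 CPM, and the Wnt-binding protein gene Sfrp2 at 215, 280, 572 and 102 CPM. In all of these the transplant had the lowest value. Jag1, a Notch ligand of the S-shaped body, went the other way, with 73.3, 140, 168 and 274 CPM. Compared with the remaining cells, the Slc12a1 group had 93 of 7082 genes (1.31%) at least 2-fold higher and 77 (1.09%) at least 2-fold lower in all 4 libraries, and Lhx1, Jag1, Fgf8 and Sfrp2, 4 of the 11 measured early nephron genes, were among the lower ones.

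Some genes of the mature loop were already present in the remaining cells, since Tfap2b was at 162, 174, 84.1 and 80.9 CPM and Mecom at 315, 203, 150 and 121 CPM. Both were far lower in the Lrp2 Hnf4a group. That group had 339 of 8146 genes (4.16%) at least 2-fold higher and 148 (1.82%) at least 2-fold lower than the remaining cells in all 4 libraries, with Tfap2b, Mecom, Sfrp2, Spon1 and Tspan8 among the lower ones. Of the thin limb list, Cryab, Corin, Bst1 and Cldn4 were lowest at E15.5 in the remaining cells. Cryab, a small heat shock protein gene of the thin limb and inner medulla, was at 4.77, 478, 139 and 632 CPM, and Corin, a serine protease gene, at 1.02, 34.6, 13.1 and 49.6 CPM. The surface enzyme gene Bst1 was at 0, 16, 12.6 and 39.1 CPM. The claudin gene Cldn4 was at 21.8, 95.4, 327 and 585 CPM. Aqp1, the water channel gene of the proximal tubule and thin descending limb, was at 6.48, 78.5, 4.92 and 37.8 CPM in the remaining cells. Slc14a2, the urea transporter gene of the inner medulla and thin descending limb, did not exceed 2.73 CPM in the remaining cells. Clustering of the selected cells without centring by library gave 0 thin limb-like and 34 podocyte-like cells in the transplant. The podocyte-like cluster also had 4 thin limb markers at least 2-fold higher than the other selected cells. Its part in the transplant's thin limb values was not tested.

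Top2a, a topoisomerase gene of dividing cells, was detected in 67.5%, 29.2%, 21.6% and 9.81% of the selected cells, a share not adjusted for the greater depth at E15.5. As a level, Top2a was at 205, 89.1, 37.8 and 5.93 CPM in the Slc12a1 group, at 258, 84.9, 50.5 and 17.0 CPM in the Lrp2 Hnf4a group and at 310, 345, 187 and 35.2 CPM in the remaining cells. The level was highest at E15.5 in both named groups and at E17.5 in the remaining cells. The remaining cells had the highest level of Top2a in every library.

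The Slc12a1 group was set beside Umod-high cells, which are cells kept with at least 2 Umod and at least 1 Slc12a1 UMIs (11, 59, 241 and 411 cells, median UMI counts 59409, 10457, 11766 and 14236). This contrast uses genes that defined the sets, among them Umod and Slc12a1, and is a description. Irx1, Irx2, Sim2 and Pou3f3 chose the selected cells but were not required of the Umod-high cells. Few genes separated the 2 sets in all 4 libraries: 6 of 6210 genes (0.0966%) were at least 2-fold higher in the Slc12a1 group, namely Bmp3, Pappa2, Klk1, Car15, Ssfa2 and Dctd, and 2 (0.0322%) lower, Fuom and Npb. With 3 of 4 markers 6 were higher and 5 lower. With cells selected by the rule after thinning to 3000 UMIs, 0 of 5848 genes were higher and 1 lower. The Umod-high cells, the group limits and the levels still used all UMIs there, so a cell could lie in both sets. In the transplant the Slc12a1 group then held 91 cells with a median of 14448 UMIs. This alternative is therefore not a comparison at equal depth. After thinning, the ratio nearest 1 over the libraries was 1.92 for Pappa2, against 3.04 without, and 1.48 for Bmp3, against 3.33. None of the 17 measured genes of the thick ascending limb transport list was in either set, and the list's median log2 ratio was -0.21, 0.05, 0.02 and -0.09. Sostdc1, the gene of a secreted antagonist of BMP and Wnt signals, had ratios of 1.19, 1.03, 0.965 and 0.976, and Kcnj1 0.517, 0.770, 1.07 and 0.870. Sostdc1 and Kcnj1 were within 2-fold in each library, while Wfdc15b of the same list was not at P0 and in the transplant (0.378 and 0.429).

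Pappa2, the gene of a protease that cleaves IGF-binding proteins and marks the macula densa and nearby thick ascending limb, was higher in the Slc12a1 group than in Umod-high cells in every library. It was at 92.1 against 23.4 CPM at E15.5 and at 324 against 1.59 CPM at E17.5. It was at 221 against 13.3 CPM at P0 and at 135 against 44.4 CPM in the transplant. The ratios were 3.94 (95% counting interval 2.24 to 7.35), 203 (36.1 to 8055, resting on 1 UMI in the Umod-high cells), 16.7 (12.1 to 23.4) and 3.04 (2.37 to 3.87). Pappa2 was detected in 58.8%, 57.1%, 51.4% and 42.4% of the Slc12a1 group, in 27.3%, 1.69%, 5.81% and 18.5% of Umod-high cells and in at most 0.881% of endothelial cells. After thinning to 3000 UMIs the shares were 17.6%, 33.3%, 30.6% and 16.4% in the Slc12a1 group and 0%, 0%, 2.98% and 8.13% in Umod-high cells. The Slc12a1 group was above the Umod-high cells before and after thinning in each library.

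Nos1, Ptgs2 and Robo2 were also higher in the Slc12a1 group from E17.5 on. Nos1, the neuronal nitric oxide synthase gene of the macula densa, was at 7.94, 28.8, 35.5 and 51.9 CPM in the Slc12a1 group and at 4.38, 0, 0.302 and 10.4 CPM in Umod-high cells. The cyclooxygenase gene Ptgs2 was at 3.17, 43.1, 30.2 and 72.7 CPM in the Slc12a1 group and at 2.92, 0, 3.92 and 13.4 CPM in Umod-high cells. At E15.5 Ptgs2 rested on 2 UMIs in each set. Robo2, the gene of a guidance receptor on the macula densa list, had ratios of 1.30 (0.517 to 3.37), 6.92 (3.44 to 15.8), 8.17 (5.52 to 12.4) and 5.83 (4.25 to 7.93). At E15.5 the intervals of Robo2, Nos1 and Ptgs2 all held a ratio of 1, and Oxtr had no UMI in the Slc12a1 group of any library.

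**Figure D4:**
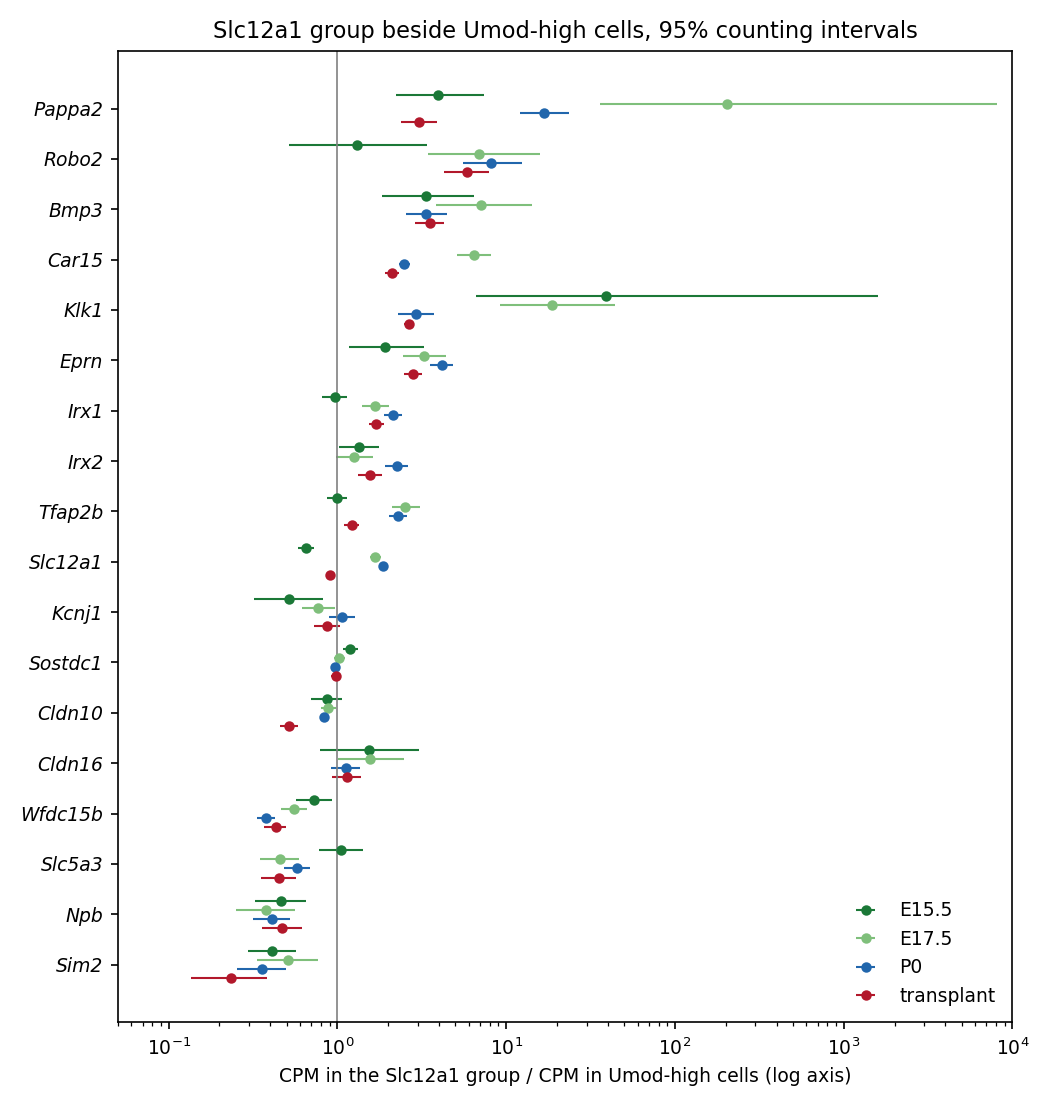
Ratio of the level in the Slc12a1 group to the level in Umod-high cells for genes of the loop and macula densa and others with leading ratios, on a log axis, by library, with 95% counting intervals. Pappa2, Bmp3 and Klk1 lie to the right of 1, as does Robo2 from E17.5 on, Wfdc15b, Npb and Sim2 to the left, and Sostdc1 near 1; Car15 at E15.5 is not drawn because the Umod-high cells had no UMI of it.

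Within the Slc12a1 group, cells with a Pappa2 UMI (10, 44, 75 and 25 cells) were set beside cells without one (7, 33, 71 and 34 cells). The cells with Pappa2 were deeper, with median UMI counts of 40257.5, 8296, 8584 and 12721 beside 26065, 7018, 7505 and 6859. Nos1 was at 12, 43.2, 49.4 and 71.1 CPM with Pappa2 and at 0, 7.18, 18.5 and 27.2 CPM without. Ptgs2 was at 5.0, 67.1, 45.2 and 94.7 CPM with Pappa2 and at 0, 7.18, 11.8 and 44.2 CPM without, and Robo2 at 19.997, 156, 114 and 121 CPM beside 17.4, 14.4, 47.1 and 81.5 CPM. Sim2 was lower in the cells with Pappa2 in every library, at 42.5, 26.4, 13.7 and 21.1 CPM beside 157, 101, 55.5 and 30.6 CPM. In the transplant Sim2 rested on 8 and 9 UMIs, and the intervals overlapped (9.09 to 41.5 and 14.0 to 58.0 CPM). Kcnj1 differed in no fixed direction, with 49.99, 230, 126 and 126 CPM beside 39.2, 180, 158 and 302 CPM. The bone morphogenetic protein gene Bmp3 was at 97.5, 189, 122 and 250 CPM with Pappa2 and at 30.5, 53.9, 62.2 and 139 CPM without, so it was higher with Pappa2 in all 4 libraries. Klk1 was lower with Pappa2 except at E17.5, with 22.5, 321, 65.8 and 992 CPM beside 117, 111, 175 and 2140 CPM. Car15 was higher with Pappa2 except at P0, with 127, 1173, 832 and 853 CPM beside 60.9, 420, 1264 and 710 CPM. Avpr1a, also on the macula densa list, rested on 6 UMIs or fewer on each side and had no fixed direction, with 0, 4.80, 8.23 and 5.26 CPM with Pappa2 and 0, 0, 5.04 and 13.6 CPM without. Oxtr had no UMI on either side. This split was made after the Pappa2 values had been seen and is given without a test.

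Several genes were lower in the Slc12a1 group than in Umod-high cells. Sim2 had ratios of 0.412, 0.510, 0.357 and 0.235, with no interval that reached 1. Npb, a neuropeptide gene, had ratios of 0.465, 0.379, 0.408 and 0.472, and Wfdc15b, a gene of the whey acidic protein family, 0.727, 0.553, 0.378 and 0.429. Slc5a3, the inositol transporter gene that responds to osmotic load, had ratios of 1.05, 0.457, 0.578 and 0.448. Irx1 went the other way from E17.5 on, with ratios of 0.962, 1.68, 2.13 and 1.70. Irx1 and Sim2 were among the markers that chose the selected cells but not the Umod-high cells, so the choice enters both ratios. Summed dissociation stress genes were at 1744, 7950, 13128 and 8556 CPM in Umod-high cells beside 1986, 7206, 13669 and 8259 CPM in the selected cells with 2 or more Slc12a1 UMIs, so they were close within each library.

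All selected cells together differed more from the Umod-high cells, with 301 of 9537 genes (3.16%) at least 2-fold higher and 79 (0.828%) at least 2-fold lower in all 4 libraries. Among the higher genes were 12 of the 14 measured proximal tubule genes, and among the lower ones 12 of the 17 measured transport genes of the thick ascending limb. The Lrp2 Hnf4a group, with the first of these lists, and the remaining cells, with little Slc12a1, made up most of the selected cells in this comparison.

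The remaining cells were also set beside Jag1 Lhx1 cells, cells outside the selection with at least 1 UMI each of Jag1 and Lhx1 and at most 1 of Umod (515, 443, 952 and 236 cells). In the transplant these cells had Slc12a3, the cotransporter gene of the distal convoluted tubule that the rule excludes, at 637 CPM, beside 17.2, 28.7 and 8.49 CPM in the other libraries. In all 4 libraries 15 of 10053 genes (0.149%) were at least 2-fold higher in the remaining cells and 91 (0.905%) at least 2-fold lower. Spon1, the gene of a secreted matrix protein, was 18.2-fold, 27.9-fold, 11.0-fold and 11.0-fold higher, and the tetraspanin gene Tspan8 6.12-fold, 10.8-fold, 12.9-fold and 4.62-fold higher. The ephrin receptor gene Epha4 was 2.61-fold, 2.82-fold, 3.07-fold and 3.39-fold higher, and Fgf8 3.15-fold, 2.47-fold, 2.52-fold and 11.4-fold higher. Every counting interval of these 4 genes lay above 1. Among the 14 measured early nephron genes, Fgf8 was the only one in the higher set.

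Genes of other segments were lower in the remaining cells than in the Jag1 Lhx1 cells. These were 7 of 14 measured proximal tubule genes (among them Lrp2, Slc34a1, Slc22a6, Hdc, Fbp1 and Spp2), 4 of 5 intercalated cell genes (Foxi1, Atp6v1g3, Atp6v1b1 and Car2) and 3 of 8 distal tubule genes (Calb1, Kl and Pgam2). Lrp2 was at 3.07, 10.1, 6.01 and 13.0 CPM in the remaining cells, which were cut on Lrp2, and at 69.3, 76.3, 60.04 and 223 CPM in the Jag1 Lhx1 cells. Calb1, a calcium-binding protein gene of the distal tubule, was at 44.7, 5.06, 31.1 and 1.30 CPM beside 179, 252, 75.5 and 22.0 CPM. Lhx1, which chose the other set, was lower by 1.73-fold, 2.36-fold, 2.47-fold and 2.24-fold. Against all selected cells, 81 of 10654 genes (0.760%) were at least 2-fold higher and 63 (0.591%) at least 2-fold lower than in the Jag1 Lhx1 cells.

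P0 was compared with E15.5, both of strain ICR. In the selected cells as a whole, 854 of 10389 genes with at least 50 UMIs over both libraries (8.22%) were at least 2-fold higher at P0 and 753 (7.25%) at least 2-fold lower. Since the groups took different shares of the cells, the groups were also compared one by one. In the Slc12a1 group 519 of 4919 genes (10.6%) were higher at P0 and 323 (6.57%) lower, on 146 and 17 cells. Of the 16 measured thick ascending limb transport genes, 10 were at least 2-fold higher at P0 and 0 lower, with a median log2 ratio of 1.51 beside -0.02 for all genes compared.

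Slc12a1, which defined the group, is among the 10. The limit of 2 UMIs lets deeper cells pass at a lower level, and median depth was 30364 UMIs at E15.5 and 8263 at P0. In cells selected by the rule after thinning to 3000 UMIs (11 and 98 cells), the list's median log2 ratio was 1.59. Slc12a1 was then 2.44-fold, Kcnj1 3.95-fold and Cldn10 3.56-fold higher at P0. The limit of 2 Slc12a1 UMIs and the levels still used all UMIs, at median depths of 40033 and 7826. This alternative therefore does not remove the effect of depth on the limit. Without thinning Kcnj1 was 3.05-fold higher (95% counting interval 2.06 to 4.68) and Cldn10 4.01-fold (3.39 to 4.76). Fxyd2, the regulatory subunit gene of the sodium pump, was 6.24-fold higher (5.63 to 6.92), with 633 and 3950 CPM. Ppp1r1a, the gene of a protein phosphatase inhibitor, was 10.4-fold higher (6.74 to 17.0), and 3.30-fold higher after thinning. Of the macula densa genes, Nos1 was 4.47-fold higher (1.79 to 14.4) on 5 UMIs at E15.5, and Pappa2 2.40-fold higher (1.81 to 3.24).

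Transcription factors did not follow the transport genes. Of the 11 measured factors of the loop and distal nephron, 0 were at least 2-fold higher at P0 in the Slc12a1 group and 6 were at least 2-fold lower, among them Tfcp2l1, Mecom, Pax2, Foxc1 and Emx2, with a median log2 ratio of -1.0 for the list. Mecom was 2.09-fold lower (1.80 to 2.43) and Emx2, a homeobox factor, 6.21-fold lower (3.73 to 10.7). Tfap2b was 1.73-fold lower, which did not pass the 2-fold limit. Of the 10 measured proliferation genes 9 were at least 2-fold lower, Top2a by 5.42-fold (3.88 to 7.68). The size of this difference depended on the processing. In cells selected by the rule after thinning, the list's median log2 ratio went from -1.95 to -0.80. The P0 over E15.5 ratio of Top2a went from 0.184 to 0.544. That of Cenpf went from 0.163 to 0.557 and that of Ube2c from 0.297 to 0.594. These genes stayed lower at P0 but no longer passed the 2-fold limit.

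Beside these values, 16 of the 17 measured dissociation stress genes were at least 2-fold higher at P0 in the Slc12a1 group, with a median log2 ratio of 2.90. The heat shock gene Hspa1a was at 3.17 and 1575 CPM, a 496-fold difference (137 to 4098) on 2 UMIs at E15.5. Hspa1a and Atf3, a stress-induced transcription factor gene, were among the 8 highest ratios in each of the 3 groups, and the part of the stress genes in the other differences was not tested. The oxidative phosphorylation list, with 19 measured genes, had a median log2 ratio of 0.21.

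In the Lrp2 Hnf4a group, 677 of 8531 genes (7.94%) were at least 2-fold higher at P0 and 638 (7.48%) lower. Of the 15 measured proximal tubule genes, 6 were at least 2-fold higher (among them Slc3a1, Fbp1, Gatm, Kap and Slc27a2) and the list's median log2 ratio was 0.75. Gatm, the first enzyme of creatine synthesis, was 10.1-fold higher (6.95 to 15.1) and the gluconeogenic enzyme gene Fbp1 7.16-fold higher (5.80 to 8.91). Lrp2, the gene that defined the group, differed little, with 330 and 318 CPM. Kap, an androgen-responsive gene of the proximal tubule, had no UMI at E15.5 and 197 CPM at P0, which is at least 208-fold higher when the E15.5 count is set to 3 UMIs. Of the 16 measured proliferation genes 13 were at least 2-fold lower, and 15 of the 17 measured stress genes at least 2-fold higher. Of 6 measured collecting duct genes, Aqp2, Aqp3, Hsd11b2, Scnn1b and Gata3 were at least 2-fold lower at P0 and Wnt7b higher, with a median log2 ratio of -3.85. Also lower were 5 of 6 measured distal convoluted and connecting tubule genes, with Kl higher, and all 5 measured stroma genes. Their part in the other values was not tested.

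In the remaining cells 497 of 7897 genes (6.29%) were at least 2-fold higher at P0 and 438 (5.55%) lower, and with a minimum of 20 UMIs 767 and 890. Of 14 measured early nephron genes, 5 were at least 2-fold higher at P0 (Jag1, Sox4, Cdh6, Sfrp2 and Cited2), Sfrp2 by 2.66-fold (2.41 to 2.94) and Jag1 by 2.29-fold (1.92 to 2.74). Only 1 of the 16 measured proliferation genes was at least 2-fold lower, beside 9 of 10 in the Slc12a1 group and 13 of 16 in the Lrp2 Hnf4a group. These counts are without thinning. Ccnd1 (883 and 829 CPM) and Fgf8 (96.9 and 98.9 CPM) had ratio intervals that reached 1. All 7 measured stroma genes and all 7 measured endothelium genes were at least 2-fold lower at P0, with median log2 ratios of -2.31 and -2.23, and their part in the other values was not tested.

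The transplant was compared with E17.5, labelled C57BL/6N and C57BL/6. In the selected cells as a whole 906 of 9210 genes (9.84%) were at least 2-fold higher in the transplant and 461 (5.01%) at least 2-fold lower, with a median log2 ratio of 0.11 over all genes, relative to which the list medians should be read. With scaling by the median ratio these counts were 731 and 580. In the Slc12a1 group 367 of 4174 genes (8.79%) were higher and 137 (3.28%) lower, on 59 and 77 cells, or 274 and 188 with that scaling. The transport genes were close to their E17.5 levels: of 17 measured, Cldn16 was at least 2-fold higher and Cldn10 at least 2-fold lower, and the list's median log2 ratio was -0.05. Slc12a1 was at 2874 and 2985 CPM and Kcnj1 at 203 and 210 CPM.

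Claudins and other epithelial genes differed more. Of 9 measured claudins, Cldn3, Cldn4, Cldn7, Cldn8, Cldn9 and Cldn16 were at least 2-fold higher in the transplant and Cldn10 was lower, by 2.64-fold (2.31 to 3.03). Cldn3 was 6.99-fold higher (5.42 to 9.14). Of 14 tubule epithelium genes 8 were at least 2-fold higher, among them the cadherin gene Cdh16 by 2.64-fold (2.29 to 3.05) and the keratin gene Krt19 by 8.65-fold (5.29 to 15). S100g, a calcium-binding protein gene of the distal nephron, was 15.1-fold higher (12.8 to 17.9) and the small heat shock gene Hspb1 29.6-fold higher (14.1 to 74.6). Pappa2 was lower in the transplant, by 2.40-fold (1.87 to 3.09), and so was Ppargc1a, a regulator of mitochondrial genes, by 2.83-fold. The other 3 of the 4 measured macula densa genes had ratios above 1 but under 2 (Nos1 1.80, Ptgs2 1.68 and Robo2 1.05). The median log2 ratio of the macula densa list was 0.40. In cells selected after thinning these ratios were 0.995, 1.08 and 0.537, and the list's median was -0.47. All 4 measured proliferation genes were at least 2-fold lower, and 3 of 16 stress genes at least 2-fold higher.

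**Figure D5:**
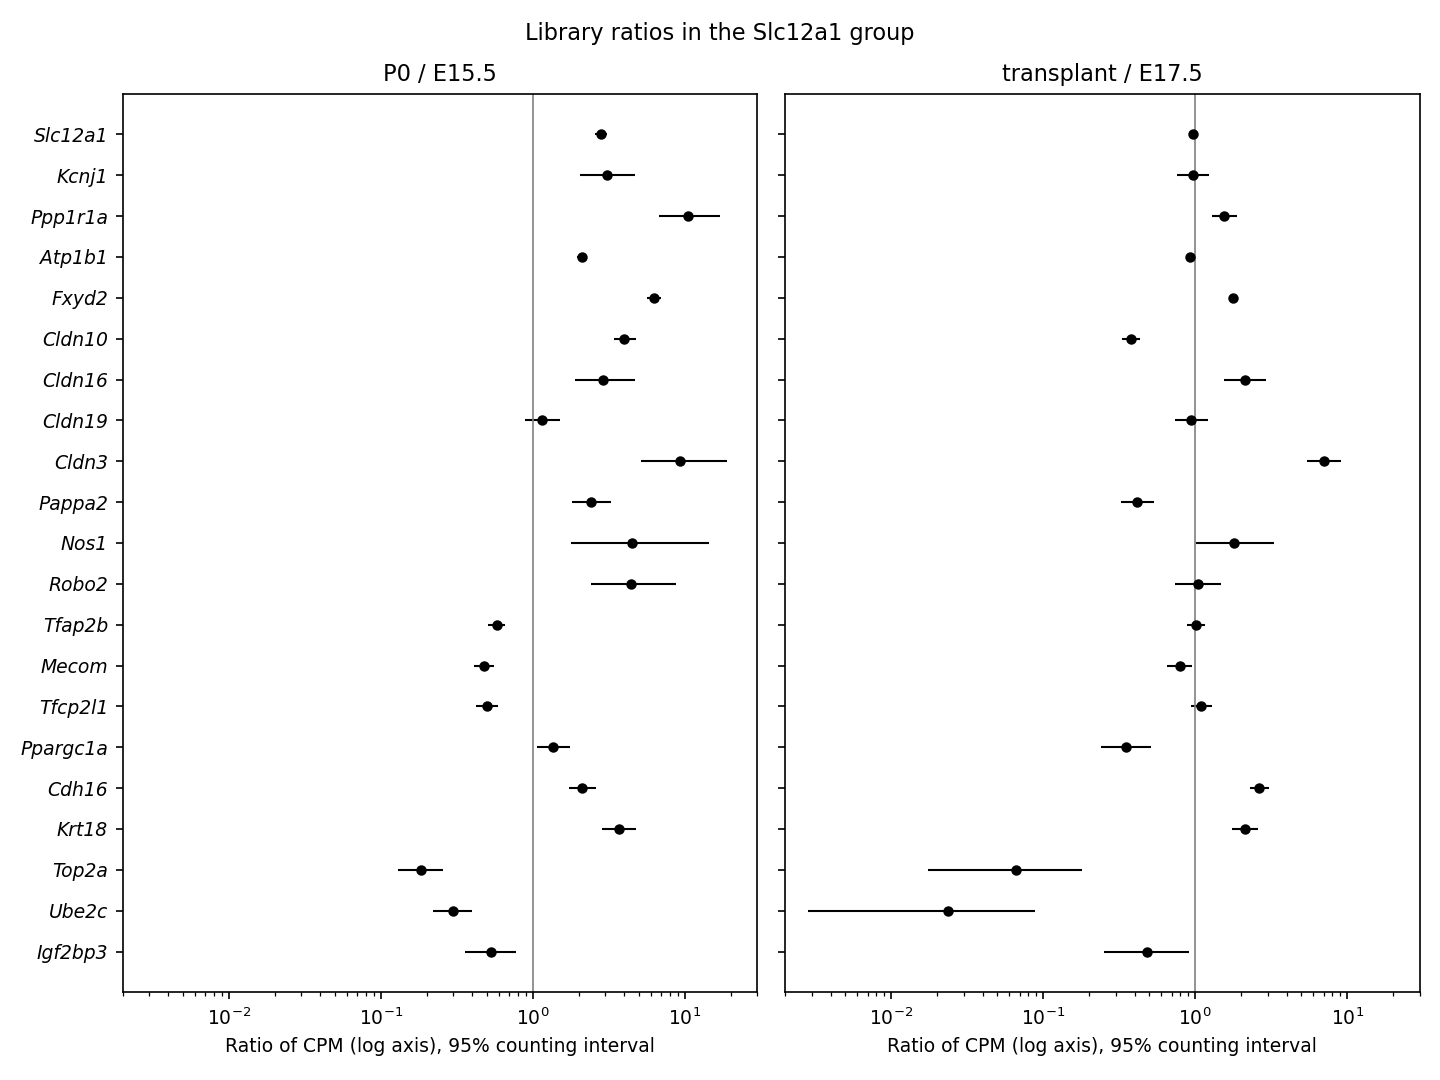
Ratios of levels in the Slc12a1 group for transport, claudin, macula densa and other genes on a log axis, P0 over E15.5 (left) and transplant over E17.5 (right), with 95% counting intervals. Ppp1r1a and Fxyd2 lie far to the right of 1 on the left side only, Top2a and Ube2c lie to the left of 1 on both sides, and Cldn3 lies to the right on both.

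In the Lrp2 Hnf4a group, 553 of 6690 genes (8.27%) were at least 2-fold higher in the transplant and 287 (4.29%) lower. Proximal tubule genes were mostly below their E17.5 level, since 6 of 15 measured were at least 2-fold lower (among them Lrp2, Slc22a6, Fbp1, Gatm and Spp2) and only Kap was higher. The list's median log2 ratio was -0.54. Gatm was 9.62-fold lower (7.13 to 13.2), Fbp1 4.35-fold lower and Lrp2 2.58-fold lower (2.33 to 2.86). Kap was 7.38-fold higher (6.63 to 8.25), with 2177 and 295 CPM, while Serpina6, the corticosteroid-binding globulin gene, was 71.5-fold lower (41.5 to 135).

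Cd74 and H2-Aa were among the 8 highest ratios in the selected cells, the Lrp2 Hnf4a group and the remaining cells of the transplant. Cd74, the invariant chain gene of MHC class II, was at 1352 CPM in the Lrp2 Hnf4a group and at 11.4 CPM at E17.5, a 118-fold difference (70.3 to 217). In the remaining cells Cd74 was at 676 and 0.844 CPM, the latter 1 UMI, a ratio of 801 (143 to 31697). In the Slc12a1 group Cd74 was at 56.3 and 2.88 CPM. The class II gene H2-Aa was at 272 and 2.45 CPM in the Lrp2 Hnf4a group, a 111-fold difference (37.8 to 540) on 3 UMIs at E17.5. The 7 macrophage marker genes summed to 40.3 CPM in the transplant's selected cells and 10.3 CPM at E17.5, with 0 and 1 of the genes at 0, beside 447 and 120 CPM in the other cells. Their part in the Cd74 values was not tested.

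In the remaining cells 779 of 5570 genes (14.0%) were at least 2-fold higher in the transplant and 435 (7.81%) lower. The count depended on the processing, with 335 of 4446 higher and 286 lower after thinning, 1495 of 8607 and 760 with a minimum of 20 UMIs, and 619 and 581 with scaling by the median ratio. Early nephron genes were lower, 9 of 13 measured by at least 2-fold, with a median log2 ratio of -1.78. Ccnd1 was 11.0-fold lower (8.51 to 14.4), Fgf8 6.00-fold lower (3.68 to 10.4) and Lhx1 3.47-fold lower (2.41 to 5.14), and all 16 measured proliferation genes were at least 2-fold lower. Jag1 was 1.96-fold higher (1.59 to 2.41).

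Summed over the remaining cells, 5 of 6 measured genes of the collecting duct were at least 2-fold higher in the transplant, with a median log2 ratio of 4.87. Fxyd4, a sodium pump regulator gene of the collecting duct, was at 270 CPM in the transplant and 11.8 CPM at E17.5. The water channel gene Aqp3 was at 125 and 0.844 CPM, the latter 1 UMI, a ratio of 148 (26 to 5923), and Aqp2 was at 114 and 2.53 CPM. S100g was at 1852 and 56.5 CPM. One cluster of 20 selected cells, left unnamed and led by Aqp2, Aqp3, Rhcg and Fxyd4, had 8 of 11 collecting duct markers at least 2-fold higher than the other selected cells and took 4, 0, 6 and 10 cells from the 4 libraries, so 10 came from the transplant and 0 from E17.5. Whether the difference lay beyond these cells was not tested. Of 7 measured proximal tubule genes 5 were also at least 2-fold higher, with a median log2 ratio of 2.95. Irx1, which chose the cells, was 3.1-fold lower in the transplant's remaining cells than at E17.5 (2.52 to 3.85).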

How the data were processed

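Single cells were captured with the 10x Chromium 3′ v2 kit, per the labels' protocols. The authors deposited raw UMI counts of genes in barcodes called as cells, made on GRCm38 with Cell Ranger 3.1.0 per the submitters' processing notes. The authors' file headers give 3.0.2 for both ICR libraries and 3.1.0 for the other two. How strand and multi-mapped reads were treated is not given in the sources used here, so Hspa1a, Klk1 and Slc7a12 are uncertain in how reads were split.

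Doublets were scored with Scrublet in scanpy 1.11.5 and left in; an alternative removed the highest scores at 0.8% per 1000 cells. UMIs were summed per gene over a group of cells and divided by all UMIs of the group (CPM). These 3′ tag levels were not compared between genes. Ratios carry exact conditional binomial 95% intervals and shares exact Clopper-Pearson ones (scipy 1.17.1), for counting error only. Called means a ratio of at least 2 in either direction, for genes with at least 50 UMIs over both libraries, or in all 4 libraries for comparisons within libraries. A ratio against 0 UMIs used a floor of 3 UMIs per group. Clusters were made with Leiden (python-igraph 0.11.9) on log values scaled to 10000 per cell, library means subtracted. The ratio steps were tested on simulated data.

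The members, the gene lists and the 3 groups were chosen with earlier results of these data known. Genes were named by rule: the selecting genes, the 8 highest and 8 lowest ratios by the interval bound nearest 1, the 10 highest against other cells, the leading genes against Umod-high cells, and genes of the transcription factor, transport, claudin, thin limb and macula densa lists. Other genes named were chosen after their values were seen. Some genes that meet the rule are not reported here. Alternatives were doublet removal, thinning to 3000 UMIs, 3 markers, 10% mitochondrial UMIs, 1000 genes, means over cells, median scaling, a minimum of 20 UMIs and clustering without centring. In gene counts, ratios and list medians, thinning entered the rule only, while group limits and levels used all UMIs.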

Additional observations from a re-analysis of the deposited data

Results flagged for a closer look

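The reporter tdTomato, which no comparison used, had 280 UMIs in the selected cells of P0, in 177 of 435 cells (40.7%, exact interval 36.0 to 45.5%). It was found in 41.1% of all cells kept at P0, so the selected cells did not stand apart from their library. The E15.5, E17.5 and transplant libraries had 0 UMIs of it in the selected cells, which allows a share of up to 1.44%, 1.03% and 1.40% of cells with a UMI. The P0 library is labelled Wild type.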

How the results depend on the processing

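No paired analysis was possible because each group is 1 library. Under the alternatives listed above, 22 of 409 recomputed list medians and 28 of 1025 gene ratios changed sign, all of them under 2-fold before (largest log2 size 0.57 and 0.85). The macula densa list in the Slc12a1 group, transplant over E17.5, went from 0.40 to -0.47 with thinning, and the early nephron list there from 0.57 to -0.73 with 20 UMIs. Shares of selected cells depended on depth and marker number: with thinning to 3000 UMIs they were 2.28% (E15.5), 4.41% (E17.5) and 3.26% (P0), with 3 of 4 markers 3.37%, 3.68%, 2.94% and 1.34%, and with at least 1000 genes 3.83% in the transplant. The order of E15.5 and the transplant turned with thinning, from 5.86% and 3.23% to 2.28% and 3.39%. Genes at least 2-fold lower at P0 than at E15.5 numbered 335 with thinning and 446 with 3 markers, and genes lower in the transplant than at E17.5 numbered 707 with a minimum of 20 UMIs. Against Umod-high cells, thinning left 83 genes higher and 12 lower, and 3 markers left 170 higher. Against Jag1 Lhx1 cells 81 genes were higher and 63 lower, which became 61 and 144 with thinning and 66 and 117 with 3 markers, so more genes were then lower than higher. Within the groups, thinning changed the genes higher and lower at P0 from 519 and 323 to 429 and 204 (Slc12a1 group), from 677 and 638 to 237 and 65 (Lrp2 Hnf4a group) and from 497 and 438 to 530 and 250 (remaining cells), and in the transplant from 553 and 287 to 127 and 107 in the Lrp2 Hnf4a group. With 3 markers they were 620 and 337 in the Lrp2 Hnf4a group and 364 and 212 in the remaining cells at P0, and in the transplant 305 and 178, and 459 and 384. With 20 UMIs they were 904 and 752, 909 and 1056, and 767 and 890 at P0, and 827 and 338, 979 and 510, and 1495 and 760 in the transplant, in the order Slc12a1 group, Lrp2 Hnf4a group, remaining cells. The causes were not tested, beyond the smaller number of selected cells and UMIs that thinning and 3 markers leave. Cells selected after thinning could also lie among the Umod-high or Jag1 Lhx1 cells, which were defined with all UMIs. Without centring the clusters numbered 16, and the thin limb-like cells of the transplant were 0. The 17 cells of the Slc12a1 group at E15.5 limit every comparison with it.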
